A study of Mus musculus with 4 samples.

Results

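The ETO family of corepressors has 3 members in the mouse, Cbfa2t3 (encoding ETO2), Cbfa2t2 and Runx1t1 (encoding ETO). The data are SCL ChIP-seq peaks, and a peak was assigned to a member when the transcription start site (TSS) nearest to its summit, among all TSSs of protein-coding genes, belonged to that member. By this rule 19 of the 12885 peaks lay at the family, of which 13 were at Cbfa2t3, 6 at Runx1t1 and 0 at Cbfa2t2. The read-through gene Gm20388, whose span covers the Cbfa2t3 locus, was not used as a source of TSSs. Chromatin came from FLK1+ mesoderm sorted from day 3.5 embryoid bodies, the aggregates in which embryonic stem (ES) cells differentiate. The cells were J1 wild-type ES cells, with the strain given as C57Bl/6 X Sv129, and the study maps where SCL binds as mesoderm enters the blood fate. There were 2 libraries precipitated with an in-house rabbit antiserum to SCL and 2 input libraries made without antibody, with no mutant or treated group among them. The list is a single call from the merged libraries, so there is no error between replicates to give and no difference was tested.

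ETO family proteins do not recognise DNA sequence themselves. They are brought to chromatin by transcription factors and in turn hold NCOR and SMRT corepressors, SIN3 proteins and histone deacetylases, which lower transcription. SCL (gene symbol Tal1) pairs with an E protein to bind an E-box, and with the bridging proteins LMO2 and LDB1 and a GATA factor it forms a complex that also binds part of an E-box, the letters CTG, next to a GATA motif. In blood progenitors this complex can include ETO2, which holds down genes needed late in red cell and megakaryocyte maturation. ETO is best known as the partner fused to RUNX1 in acute myeloid leukaemia. The list describes where SCL lies at these genes and holds no measurement of their expression or of ETO protein binding.

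Sequences around 5 of the 19 summits are given first, each on the forward strand of mm9, to show the motif matches described further on. They are 50 bp on each side of the summit for the 3 strongest peaks of Cbfa2t3, among them the peak at its promoter, and for the far upstream pair of Runx1t1 peaks, which hold a small part of the fragments at that gene. Capitals mark each E-box (CANNTG), each GATA motif (AGATAA or AGATAG or TGATAA or TGATAG, or the reverse complement) and the letters of each composite, which is CTG followed after 7 to 9 bases by GATA on the same strand. The composite's GATA needs no flanking letter, so it can lie within a GATA motif, and its CTG can be the end of an E-box. At Cbfa2t3 on chromosome 8, which is read from the reverse strand, the windows are chr8:125243753-125243853, chr8:125190349-125190449 and chr8:125223107-125223207.
Cbfa2t3 20.8 kb upstream: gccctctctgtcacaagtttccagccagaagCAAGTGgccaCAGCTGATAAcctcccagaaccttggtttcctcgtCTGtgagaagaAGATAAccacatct
Cbfa2t3 32.6 kb downstream: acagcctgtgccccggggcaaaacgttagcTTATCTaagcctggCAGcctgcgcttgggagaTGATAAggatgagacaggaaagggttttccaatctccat
Cbfa2t3 148 bp upstream: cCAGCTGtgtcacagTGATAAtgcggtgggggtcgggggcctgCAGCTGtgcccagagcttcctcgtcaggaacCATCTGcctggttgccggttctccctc

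At Runx1t1 on chromosome 4, which is read from the forward strand, the windows are chr4:13227371-13227471 and chr4:13192054-13192154.
Runx1t1 443.2 kb upstream: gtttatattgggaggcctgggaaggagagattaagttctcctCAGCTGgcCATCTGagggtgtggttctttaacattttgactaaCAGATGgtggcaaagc
Runx1t1 478.5 kb upstream: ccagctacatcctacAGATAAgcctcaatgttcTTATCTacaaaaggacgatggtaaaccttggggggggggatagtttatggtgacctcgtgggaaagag

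Cbfa2t2 had no summit to show. The 100 bp before its first TSS, chr2:154262117-154262216 on the forward strand, are printed for comparison. Their GC content was 84%, and they held none of the motifs searched.
Cbfa2t2 100 bp before the first TSS: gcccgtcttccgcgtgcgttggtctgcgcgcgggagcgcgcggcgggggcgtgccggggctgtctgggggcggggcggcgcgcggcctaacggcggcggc

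The 2 bound members differed in how their peaks were laid out. Cbfa2t3 had 13 peaks over 88.2 kb, whereas Runx1t1 had 6 over 910.8 kb, of which 1 was rank 3 by fold in the whole list. Distances are given from the first TSS of the gene in the direction of transcription. The fold is the enrichment of ChIP over local background at the summit, with 1 fragment added to both before division. The pileup is the number of ChIP fragments stacked there, printed without that addition, as is the background. A pileup divided by its background is therefore larger than the fold, most of all where the background is low. Intervals are exact Poisson 95% confidence intervals of the pileup. They cover counting error only, with the background taken as known.

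**Figure D1:**
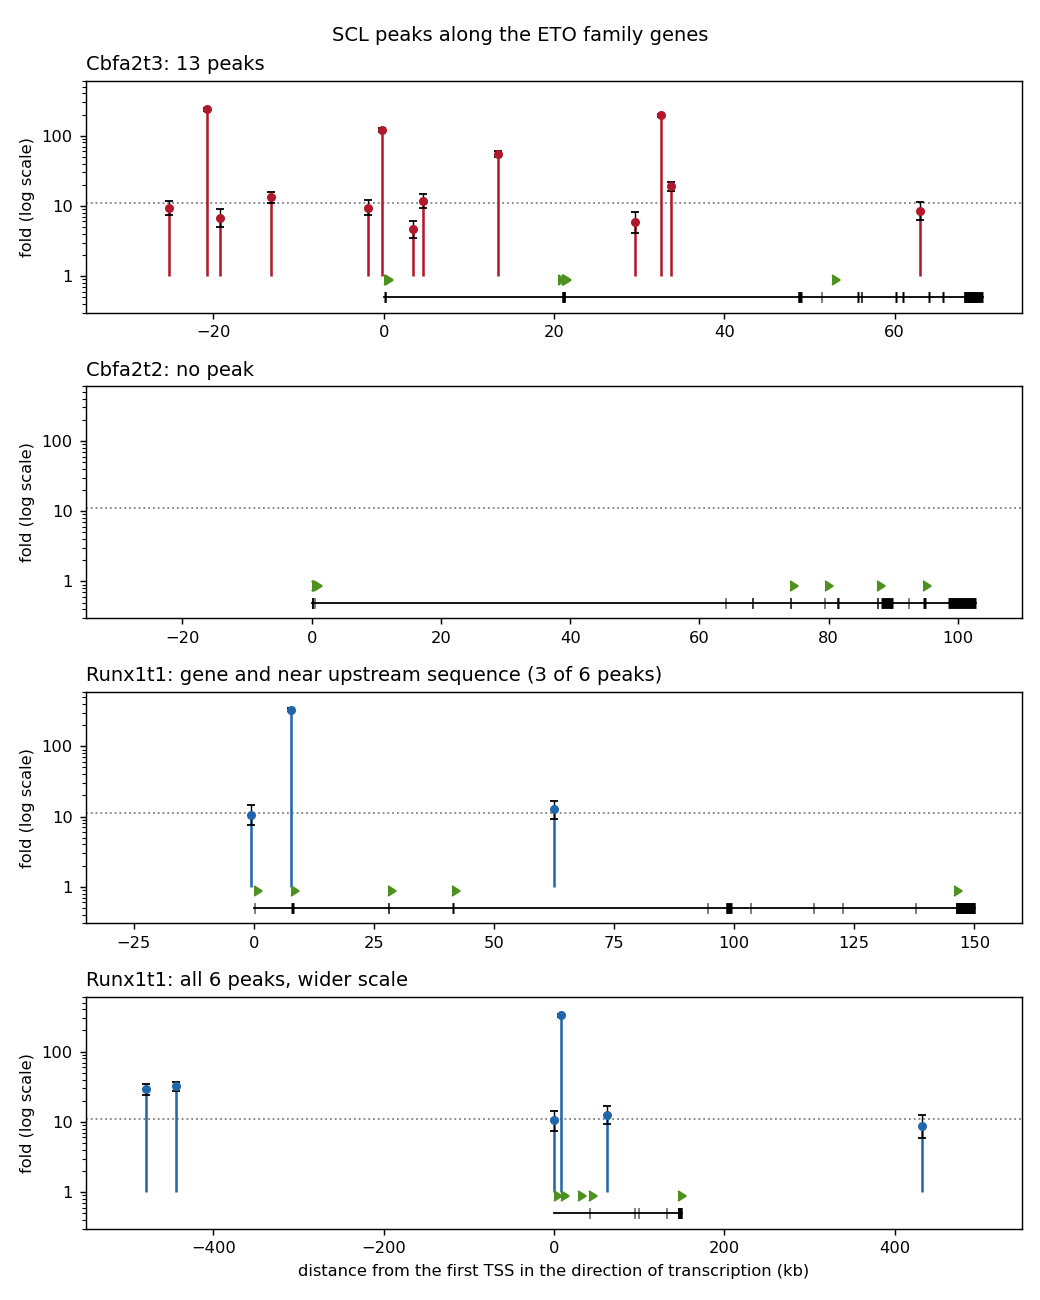
Fold of each SCL peak (log scale) against its distance in kb from the first TSS of Cbfa2t3, Cbfa2t2 and Runx1t1, with the last gene at 2 scales. Bars are 95% counting intervals, the dotted line is the median fold of all peaks, black boxes are exons and green arrowheads are annotated TSSs; the 13 Cbfa2t3 peaks reach from 25.2 kb upstream to 63 kb downstream, and the 6 Runx1t1 peaks from 478.5 kb upstream to 432.4 kb downstream.

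Cbfa2t3 occupies 125152639 to 125223009 of chromosome 8, a gene of 70.4 kb with 7 annotated TSSs. Its 13 summits spanned 88.2 kb, of which 6 lay upstream of the first TSS and 7 within the gene. Their median fold was 11.7 (range 4.62 to 236.6), beside 11.1 over all peaks. Their median was thus close to that of the list.

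The strongest peak of Cbfa2t3 lay 20.8 kb upstream, at 125243423 to 125245366. It had a fold of 236.6 (228 to 245.4) from 2839 fragments on a background of 11. By −log10 p, 5623, it ranked 2 in the whole list, and by fold 11. It was also 1944 bp wide, the rank 2 width of all peaks, where the median was 397 bp.

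The next lay within the gene, 32.6 kb downstream of the first TSS and 11573 bp from the nearest alternative TSS, in an intron. It spanned 125190190 to 125191061 and had a fold of 195.6 (185.2 to 206.4) from 1322 fragments, rank 22 by fold. Behind it came the peak at the promoter, with its summit 148 bp upstream of the first TSS, at 125222876 to 125223754. Its fold was 120.7 (113.8 to 128) from 1132 fragments, rank 124. The promoter summit also fell in an exon of Gm10612, a processed transcript annotated on the opposite strand, and ChIP fragments cannot be divided between these genes.

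An intronic peak 13.4 kb downstream, at 125209015 to 125209772, had a fold of 54.6 (49.4 to 60.2) from 397 fragments. Another intronic peak 33.7 kb downstream, at 125189008 to 125189475, had a fold of 19 (16.2 to 22) from 167 fragments. These 5 peaks were ordered without overlap of their counting intervals. Below them, every peak overlapped the next in its interval, from 13.3 (11.2 to 15.8) at 13.2 kb upstream down to the weakest. That weakest peak, 3.47 kb downstream in an intron, had a fold of 4.62 (3.47 to 6.03) from 52 fragments and ranked 12764. Its pileup was close to the median of all peaks, 53, but its background of 10.5 fragments was far above their median of 3.67.

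Among the remaining peaks of Cbfa2t3, 3 were upstream, at 25.2 kb, 19.2 kb and 1.82 kb, with folds of 9.47, 6.79 and 9.47. The other 3 were intronic, at 4.59 kb, 29.5 kb and 63 kb downstream, with folds of 11.7, 5.84 and 8.49. Upstream and intragenic peaks were alike in their middle values, with a median fold of 11.4 for the 6 upstream and 11.7 for the 7 within the gene. The deepest summit held 2839 of the 6378 fragments summed over the 13 summits, a share of 44.5% (Wilson 95% interval 43.3 to 45.7). The strongest 3 peaks by fold held 83%.

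Local background was high at this gene. Its median over the 13 summits was 6.29 fragments (range 4.77 to 11), beside 5.24 over the 868 peaks of chromosome 8 and 3.67 over all peaks. Of the 13 summits 10 were above the chromosome's median. A high background lowers the fold, and its part in the folds of the weak peaks was not tested.

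**Figure D2:**
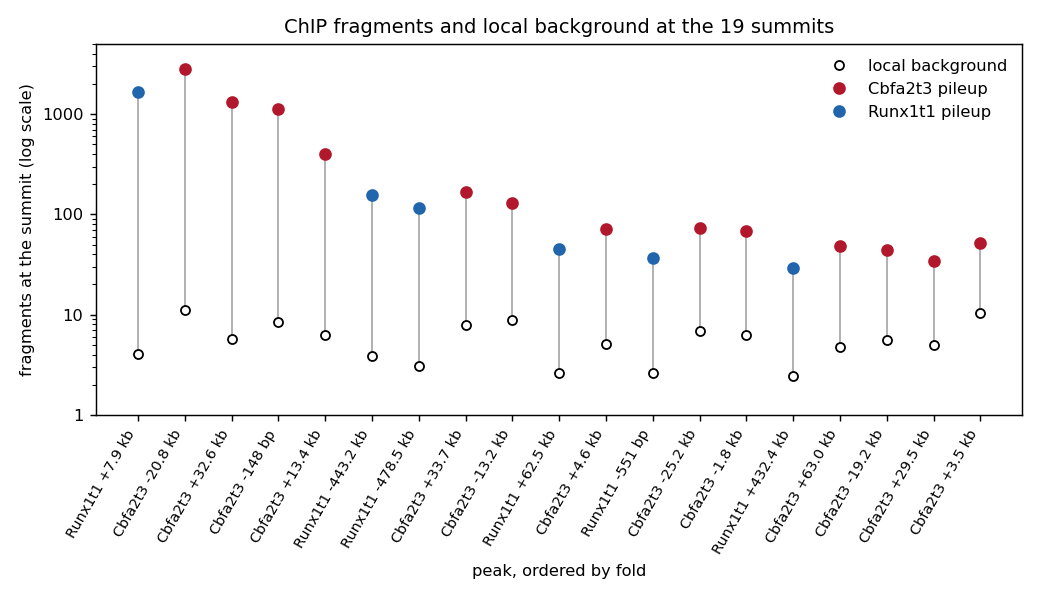
ChIP fragments at each of the 19 summits (filled points) and the local background (open points), both on a log scale, with peaks ordered by fold. Pileups run from 29 to 2839 fragments and backgrounds from 2.43 to 11, and the Runx1t1 backgrounds, up to 4.03, lie below all those of Cbfa2t3.

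Runx1t1 occupies 13670583 to 13820796 of chromosome 4, a gene of 150.2 kb with 5 annotated TSSs. Its 6 summits spanned 910.8 kb, with 3 upstream of the first TSS, 2 within the gene and 1 past its end. Their median fold was 20.8 (range 8.74 to 330.7). A single peak dominated, and it held 1664 of 2048 summed fragments, 81.25% (Wilson 95% interval 79.5 to 82.9).

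That peak, at 13678135 to 13679122, lay 7.87 kb downstream of the first TSS and 4 bp past an alternative TSS at 13678444. Its fold of 330.7 (315 to 347) ranked 3 in the list. By pileup it ranked 19, below the upstream peak of Cbfa2t3, which stood on a background of 11 fragments against 4.03 here. The fold intervals of these 2 peaks did not overlap. The most 5′ promoter of Runx1t1 was bound far less. The peak 551 bp upstream of the first TSS, at 13669898 to 13670290, had a fold of 10.5 (7.47 to 14.4) from 37 fragments.

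The next in strength lay far upstream, in sequence with no coding gene nearby. At 443.2 kb upstream, 13227202 to 13227744, the fold was 32.1 (27.3 to 37.5) from 156 fragments. At 478.5 kb upstream, 13191831 to 13192855, it was 28.9 (24 to 34.6) from 117 fragments, and these 2 overlapped in their intervals. The remaining 2 were weak. An intronic peak 62.5 kb downstream, at 13732963 to 13733211, had a fold of 12.7 (9.34 to 16.9) from 45 fragments. A peak 432.4 kb downstream, past the gene's end, at 14102522 to 14103062, had a fold of 8.74 (5.95 to 12.4) from 29 fragments. These 2 and the promoter peak overlapped in their intervals. Assignment by the nearest TSS does not show which gene a distant peak acts on, and with TSSs of lincRNA and processed-transcript genes included only 3 peaks were nearest to Runx1t1.

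Cbfa2t2 occupies 154262217 to 154365092 of chromosome 2, a gene of 102.9 kb with 9 annotated TSSs, and had no peak. The nearest peaks in the list were at 154409713 to 154409962, 44.7 kb past its end with E2f1 as the nearest gene and a fold of 6.12, and on the other side 657 kb away, nearest to Mapre1. No peak was the common state, since 28.9% of the 22366 protein-coding genes had at least 1 peak. At the mean density of the list, a territory of this size (the 116.6 kb nearer to its TSSs than to those of any other coding gene) would hold 0.566 peaks. The shallowest peak of the list had 24 fragments at its summit, so SCL binding at Cbfa2t2 was not detected at this depth and threshold, which is not evidence that it is absent.

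Peak number depends on the sequence a gene can draw from, so it was set against the territory of each gene. The territory of Cbfa2t3 was 102.7 kb, and its 13 peaks made a density of 12.7 per 100 kb, where the whole list had 0.485 and the peaks of chromosome 8 had 0.659. The mean density would give 0.498 peaks. At genes of the SCL complex and its partners, taken up further on, the density ran from 0.305 per 100 kb at Tcf4 to 42.9 at Lyl1, with 10.6 at Tal1. Runx1t1 had a territory of 1245 kb, far above the median of 45.6 kb, and its density of 0.482 per 100 kb was close to that of the list. The mean density would give 6.04 peaks to a territory of this size, and it had 6. At least 13 peaks were found at 18 genes, 0.0805% of the coding genes, Cbfa2t3 among them. At least 6 peaks were found at 282 genes, 1.26%, Runx1t1 among them.

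In strength, 5 of the 19 member peaks had a fold of at least 50, 4 of them at Cbfa2t3 and 1 at Runx1t1. Over all peaks the share was 7.26%. A fold of at least 100 was reached by 4 of the 19, and by 1.67% of all peaks. Counted by gene, 3.72% of coding genes had a strongest fold of at least 50 and 0.908% one of at least 100, and Cbfa2t3 and Runx1t1 were among both. Only 3 genes had a peak as strong as that of Runx1t1 and 11 one as strong as that of Cbfa2t3, each count including the gene itself. The weaker part of the family was ordinary, as 8 of the 19 peaks fell under the list's median fold. These shares describe the list and were not tested.

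**Figure D3:**
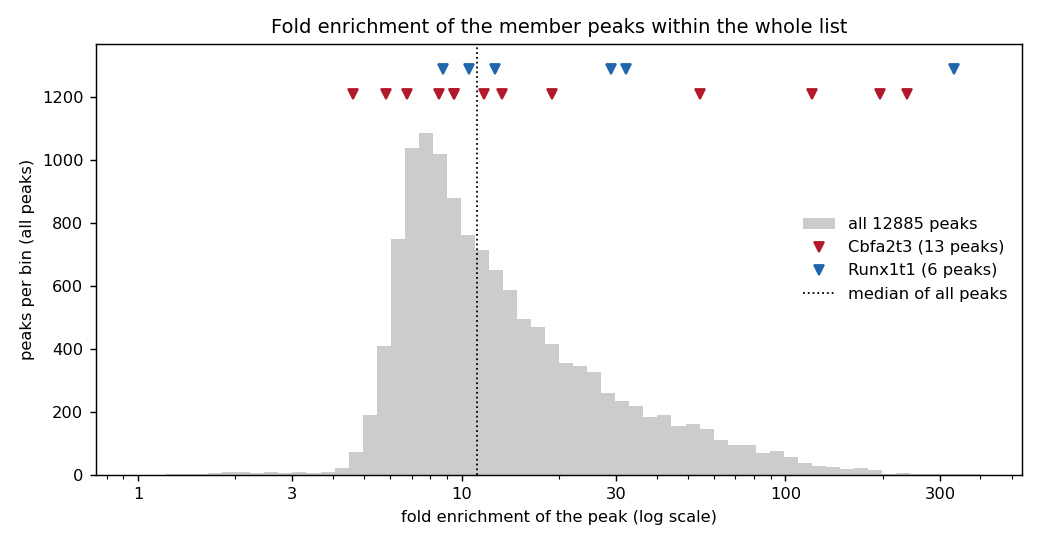
Histogram of the fold of all 12885 peaks (log axis) with the 13 Cbfa2t3 and 6 Runx1t1 peaks as triangles above it and the list's median, 11.1, as a dotted line. The member peaks spread from 4.62 to 330.7, with 8 under the median and 4 above a fold of 100.

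The peaks of Cbfa2t3 were also close to each other. Summits were chained when the next lay within the distance commonly taken to stitch enhancers into super-enhancers. That distance joins gaps of up to 11.4 kb between Cbfa2t3 summits and leaves those of 16.1 kb and more apart. A chain of 9 Cbfa2t3 summits covered 38.7 kb from the upstream peak at 25.2 kb to the intronic peak at 13.4 kb, and it held the strongest, the promoter and the 54.6-fold peaks. Among 10268 chains, 7 had at least 9 summits, this one included. The length depended on the distance, since within 5 kb the longest Cbfa2t3 chain had 4 summits, as many as 43 of 11403 chains had or exceeded, and within 50 kb it had 15, as 8 of 7319 chains had or exceeded. A further 3 summits around the intronic peak at 32.6 kb formed a chain of 4.19 kb, and the peak at 63 kb stood alone. At Runx1t1, the promoter peak and the strongest peak made a chain of 2 over 8.42 kb and the other 4 stood alone.

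The coding genes on either side had fewer peaks than the member beside them, and none as strong as its strongest. Next to Cbfa2t3, Pabpn1l, 6 kb away, and Acsf3, 76.4 kb away, each had 1 peak, with folds of 8.01 and 9.53. Their territories were 17.4 and 71.2 kb. Beside Runx1t1, Fam92a had 3 peaks in 807 kb with a strongest fold of 19.5, and Slc26a7 had none in 486.5 kb. These counts are not scaled by territory. Apart from its own, the nearest peaks to Runx1t1 lay 1023.6 kb from it on one side and 1184.8 kb on the other.

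The motifs known to be bound by SCL and its partners were counted within 50 bp of each summit. A match is a description of the letters and not a binding site, and windows of this length away from peaks hold them too. An E-box was present in 13 of the 19 member peaks, 68.4% (Wilson 95% interval 46 to 84.6), beside 52.6% of all peaks, 42.4% of windows 1 kb to either side of all peaks and 32.1% of windows of this length at coding promoters. The E-box variant CAGCTG, counted within the E-boxes, was present in 5 of 19 (26.3%, 11.8 to 48.8), beside 14.1% of all peaks, 4.7% of flanks and 5.12% of promoters.

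A GATA motif was present in 14 of 19 (73.7%, 51.2 to 88.2), close to the 73.2% of all peaks, where flanks had 17.8% and promoters 9.48%. All 19 held a GATA motif or an E-box, as did 87.9% of all peaks. Both were present in 8 (all peaks 37.8%), a GATA motif without an E-box in 6 (35.3%) and an E-box without a GATA motif in 5 (14.8%). The composite was present in 7 of 19 (36.8%, 19.1 to 59), beside 32.9% of all peaks, 3.07% of flanks and 1.74% of promoters. For the GATA motif and the composite the members thus lay near the list's own shares. For the E-box, CAGCTG and the E-box without a GATA motif, which was in 26.3% of the members, they lay above them. The list's shares were within the members' intervals for all of these, as 5 of 19 has the interval given for CAGCTG. These intervals treat the 19 peaks as independent, though they are all the peaks at Cbfa2t3 and Runx1t1, which were chosen. They show how small the counts are and are no test of a difference. The comparison with the list is for windows of 50 bp on each side. Within 25 bp an E-box was in 36.8% of the members, with no share over all peaks to set beside it.

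Motifs of other blood regulators were counted in the same way. The ETS core AGGAA was present in 11 of 19 (57.9%), beside 51.9% of all peaks, 33.1% of flanks and 28.6% of promoters. The RUNX motif TGTGGT was in 3 of 19 (15.8%), beside 9.56% of all peaks, 7.9% of flanks and 5.01% of promoters. The KLF motif CCACCC was in 1 of 19 (5.26%), beside 9.31% of all peaks, 7.85% of flanks and 15% of promoters. By gene, a GATA motif was in 11 of the 13 Cbfa2t3 and 3 of the 6 Runx1t1 peaks, an E-box in 8 and 5, CAGCTG in 3 and 2, the composite in 5 and 2, the ETS core in 10 and 1, RUNX in 2 and 1 and KLF in 1 and 0. All motifs were read on both strands. GC content within these windows had a median of 52.5% (range 41.6 to 63.4) in the members and 50.5% in all peaks.

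Within 50 bp of the summit, all 5 member peaks with a fold of at least 50 held a composite, and 2 of the other 14 did. The counts depended on the window. Within 25 bp it was 2 of the 5 and 1 of the 14, beside 31.7% of all peaks with a fold of at least 50 and 18% of the rest. Within 100 bp it was all 5 and 4 of the 14, beside 63.7% and 39.4%. Over the whole peak it was all 5 and 6 of the 14, with no share over all peaks to set beside these counts. In the whole list the composite was within 50 bp in 52.9% of the 935 peaks with a fold of at least 50 and in 31.3% of the rest. With 5 and 14 peaks from 2 loci, the difference was not tested. The spacer between CTG and GATA, searched from 7 to 9 bases, was 8 or 9 in these 5 and 8 and 7 in the 2 weaker peaks.

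The printed sequences show these matches. In the upstream peak of Cbfa2t3, a CAGCTG overlaps a TGATAA whose centre is 2.5 bp from the summit, and the centre of a composite with a spacer of 9 lies at 33.5 bp. In the intronic peak at 32.6 kb, where no E-box was found, the composite is read on the reverse strand, with its centre 11.5 bp from the summit. The promoter peak has CAGCTG at 4.5 bp from the summit, and its other CAGCTG supplies the CTG of a composite. The windows of the far upstream Runx1t1 peaks differ. That at 443.2 kb has 3 E-boxes and no GATA motif, and that at 478.5 kb has 2 GATA motifs and no E-box. Over the whole peak, 543 and 1025 bp wide, both held GATA motifs, 3 at 443.2 kb and 5 at 478.5 kb. A wider stretch holds more matches of any motif, and there is no share over all peaks to set beside these counts.

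**Figure D4:**
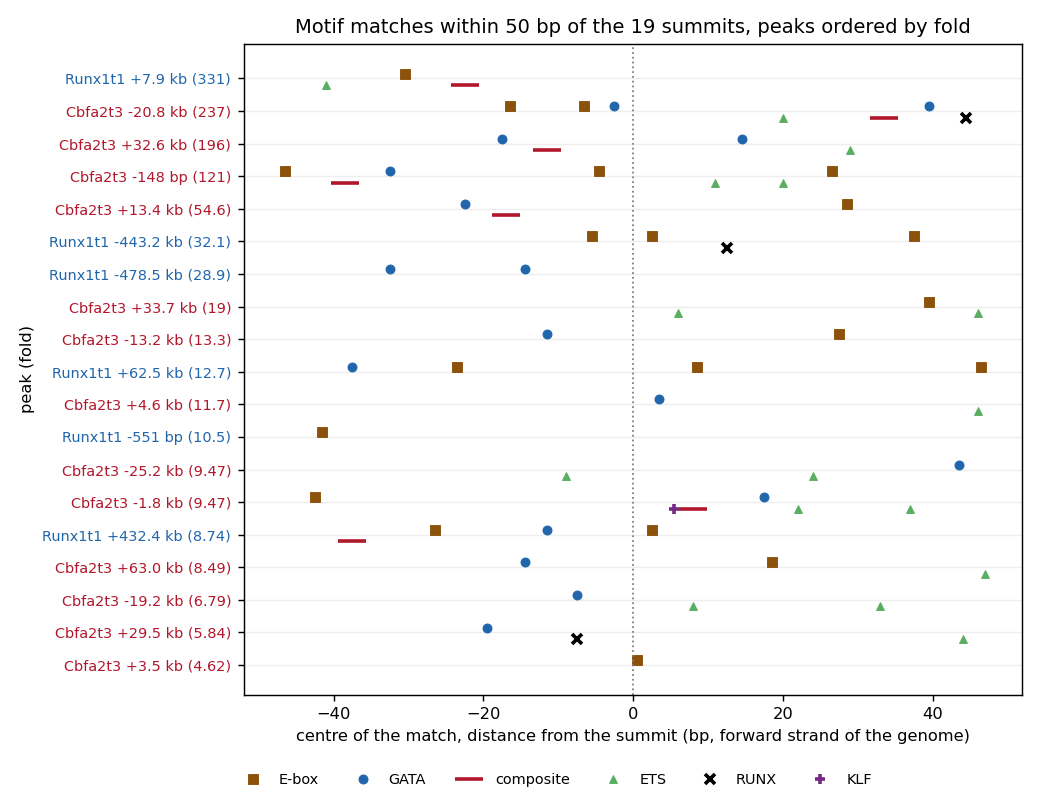
Centres of motif matches, in bp from the summit along the forward strand, for the 19 member peaks ordered by fold (in brackets). A dash marks a composite's centre and not its length; the 5 strongest peaks each hold a composite, as do 2 of the 14 others.

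Composite letters alone were common in the territories, inside and outside peaks. That of Cbfa2t3 held 54 matches, of which 12 lay inside its peaks (22.2%). The Runx1t1 territory held 504, of which 3 lay in a peak (0.595%), and genome-wide 0.774% did. These shares follow in part from the number of peaks in each territory and add no separate comparison. Cbfa2t2 had no peak, yet its territory held 34 matches. Per 100 kb the territories held 52.6, 29.2 and 40.5 matches at Cbfa2t3, Cbfa2t2 and Runx1t1, against 37.1 genome-wide.

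ETO family proteins act with the SCL complex on one side and with deacetylase complexes on the other, so the genes of both were compared. Of 11 genes of the SCL complex and its partners, Tal1 itself among them, all had a peak, beside 28.9% of all coding genes. They had a median of 2 peaks and a median strongest fold of 92.3. Among the 6469 coding genes with a peak, these medians were 1 and 14.4. Peak counts here are not scaled by territory. The territories of the 11 genes ran from 4.66 kb at Lyl1 to 656.8 kb at Tcf4, beside a median of 45.6 kb over all coding genes. In 6 of the 11 the strongest fold was at least 50 (3.72% of coding genes). The haematopoietic regulator Runx1 had 16 peaks with a strongest fold of 298. Lyl1, a close relative of SCL, had 293.9 from 2 peaks, and Lmo2, the bridging protein, 179.7 from 3. The GATA factor gene Gata1 had 142.7 and Tal1 itself 127.4, each from 4 peaks. Gfi1b, a repressor of the red cell and megakaryocyte lineages, had 92.3 from 2. The other 5 were lower. Gata2 had a strongest fold of 41.8 and Ldb1 one of 34.3. The E protein genes were near or under the median of coding genes with a peak, with 14.6 at Tcf12, 10.7 at Tcf3 and 8.15 at Tcf4.

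Of 11 genes of the corepressor machinery, 7 had a peak, beside 28.9% of all coding genes. This count is not scaled by territory. The territories ran from 4.71 kb at Gps2 to 1983 kb at Tbl1xr1, beside a median of 45.6 kb over all coding genes. None of the 11 genes reached a fold of 50, which 3.72% of coding genes did. The median strongest fold among the 7 was 8.74, beside 14.4 over all coding genes with a peak, and the highest was 21 at Gps2, a subunit of the NCOR complex. Tbl1xr1, another subunit of that complex, had 10 peaks in a territory of 1983 kb, a density of 0.504 per 100 kb. Of the deacetylase genes, Hdac2 and Hdac3 had no peak and Hdac1 had 1, and of the scaffold genes, Ncor1 and Sin3a had no peak. Both bound members had a stronger peak than any gene of this list. With 3 genes and 2 chosen lists, this remains a description.

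**Figure D5:**
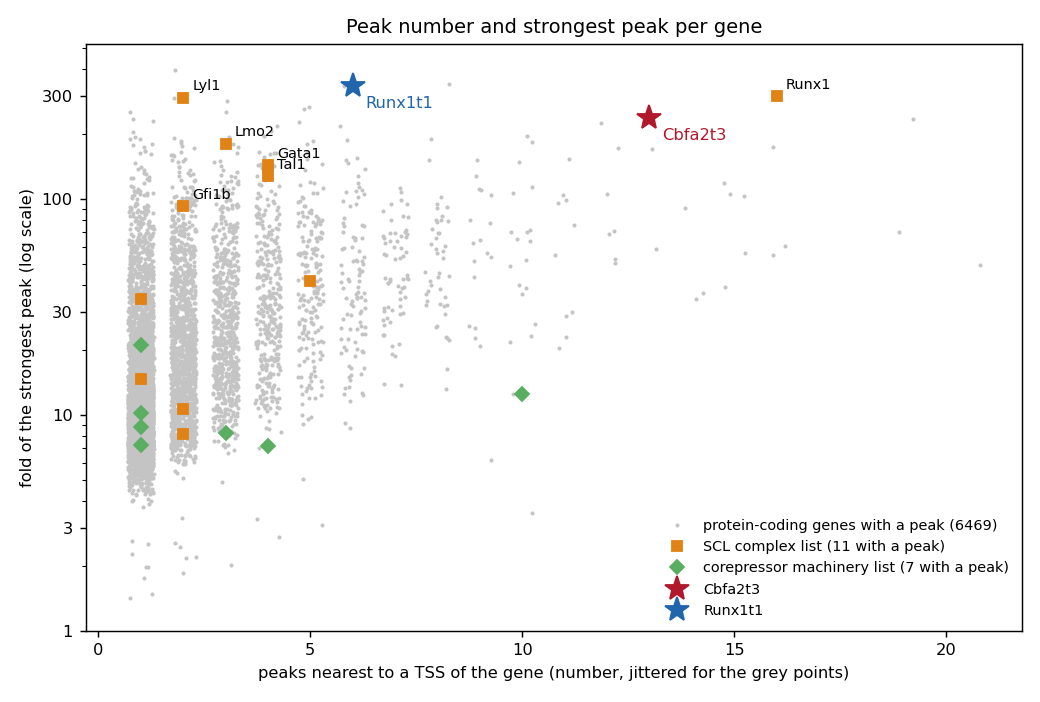
Fold of the strongest peak (log scale) against the number of peaks for each of the 6469 protein-coding genes with a peak (grey), the SCL complex list (squares), the corepressor machinery list (diamonds) and the members (stars). Cbfa2t3 lies at 13 peaks and 236.6, Runx1t1 at 6 and 330.7, and no gene of the corepressor list reaches a fold of 50.

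The genes most alike to each bound member were found by the distance between log2 peak number and log2 strongest fold, taken over this single list. For Cbfa2t3 they were Ets1 (distance 0.138, with 12 peaks and a strongest fold of 224.6), Runx1 (0.448) and Smad6 (0.466, with 10 peaks and 195.9). Ets1 encodes a transcription factor of blood and endothelium, and Smad6 an inhibitor of BMP signalling. For Runx1t1 they were Gypc (0.411, with 5 peaks and 265.8), Myo10 (0.416, with 8 and 338.4) and Ebf1 (0.438, with 5 and 259.5). Gypc encodes a red cell membrane glycophorin, Myo10 a myosin of cell protrusions and Ebf1 a factor of B cell development.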

How the data were processed

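ChIP-seq of SCL was made from sorted FLK1+ day 3.5 cells, with 2 ChIP and 2 input libraries grouped by their labels. The submitters' processing notes name Bowtie 1.1.2, MACS2 2.0.10 and the mm9 build. The authors merged the replicates, called peaks against merged input and filtered them by the irreproducible discovery rate. The deposited list gives each peak's fold, a ratio to local background after the addition described above, as the authors' own value. It also gives the authors' −log10 p and −log10 q from MACS2. It has no value per library, and library depths are not given in the sources used here.

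Pileup and background were solved from the fold and p of each peak and matched p to within 0.001 in 99.94% of peaks. Nearest TSSs, territories, chains and motifs were computed in Python 3.11.15 with numpy 2.4.6 and pandas 2.3.3, and intervals with scipy 1.17.1, on NCBIM37 (equal to mm9) and GENCODE vM1. The scripts were tested on simulated data. No gene or peak was tested, since a pooled list has no replicates.

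The members, motifs and gene lists were chosen with earlier results of these data known. Peaks named are all of a member, with the 5 strongest, the nearest to a TSS and the weakest in full where it has more than 5. Partner genes named have a strongest fold of at least 50 or no peak, with the direct neighbours of Cbfa2t3 and Runx1t1 and the 3 most alike genes. Some items that these rules would name are not reported here. Hdac1, Tbl1xr1, Gps2, Gata2, Ldb1 and the E protein genes were named, and the Cbfa2t2 window and the composite counts per territory and per window added, after their values were seen.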

Additional observations from a re-analysis of the deposited data

How the results depend on the processing

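Of 58 values recomputed under other settings, 12 moved past a limit, which was 1.5 times for a count and the 95% interval of the main value for a fold or a share. These intervals are wide with so few peaks, so the larger shifts of medians and shares within them are given too. With a fold of at least 10, or a −log10 q of at least 50, Cbfa2t3 had 7 peaks in place of 13, and their median fold was 54.6 in place of 11.7. Runx1t1 had 3 in place of 6 at that q, with lincRNA and processed-transcript TSSs added, and when only summits within the gene or 10 kb of it were counted. That last rule left out the strongest Cbfa2t3 peak, and the strongest fold became 195.6. Under it the median fold at Runx1t1 was 12.7, and at that q 32.1, in place of 20.8. Chaining summits within 5 kb gave longest chains of 4 at Cbfa2t3 and 1 at Runx1t1, and within 50 kb a chain of 15 at Cbfa2t3, of which 13 were its own. Windows of 25 bp on each side, which are shorter, lowered the share of member peaks with an E-box to 36.8%, with a composite to 15.8% and with an ETS core to 31.6%, while windows of 100 bp raised that with a KLF motif from 5.26% to 21.1%. A longer window holds more matches in any peak. For the E-box, ETS core and KLF motif there is no share over all peaks at these windows to set beside them. Over the whole peak, a setting chosen after seeing the data, 57.9% held a composite in place of 36.8%. That value has no share over all peaks beside it and describes the letters only. With Gm20388 as a source of TSSs, the counts were 13, 0 and 6, as without it. Cbfa2t2 had 0 peaks under every setting tried.

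No paired analysis was possible because peak values exist only for the merged libraries, and for the same reason no replicate could be left out in turn. At the shallowest member peak, 29 fragments gave a counting interval of 19.4 to 41.6, so the order of weak peaks is not resolved by this depth.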
